A study of Mus musculus with 6 samples.

Results

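The amino acid transporter genes described here are those of the solute carrier families Slc1, Slc3, Slc6, Slc7, Slc36, Slc38 and Slc43, with Slc7a11 left out. Of 18194 genes that had a probe set annotated to that gene alone, 62 belonged to these families by symbol. Each is represented by the probe set with the highest mean over all 6 arrays. The symbols took in 3 genes that are not transporters by name, the opposite-strand genes Slc7a6os, Slc36a1os and Slc6a19os. They also took in Slc6 carriers of monoamines, taurine and creatine.

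Affymetrix arrays read total RNA of E14Tg2a, a line of mouse embryonic stem cells, at 96 h. The cells of the compared groups had received Ncl siRNA #1, Ncl siRNA #2 or, as control siRNA, a duplex against firefly luciferase, with 2 arrays per group. A small interfering RNA lowers the transcript it matches, here Ncl, which encodes the nucleolar protein nucleolin. Depending on its probe set, Ncl stood at 37.2% to 72.9% of the control level with siRNA #1 and at 33.6% to 72.5% with siRNA #2, so transcript remained in both groups. No source used here says that the arrays of a group came from separate cultures, and p-values therefore measure the spread between these arrays only. All values below are log2 probe set values, and every change is a log2 difference with its standard error (SE) from limma. Adjusted p-values cover all 18194 genes, and a gene is said to rise or fall when its adjusted p was under 0.05.

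Cells take up amino acids through carriers that divide the work by substrate and by energy source. Sodium-coupled carriers of the Slc1, Slc6 and Slc38 families load the cell with small neutral or acidic amino acids, and exchangers such as Slc1a5 and Slc7a5 trade these for other neutral or essential ones. Several Slc7 proteins are light chains that reach the cell surface only when bound to a heavy chain, Slc3a2 or Slc3a1, and others carry arginine and lysine on their own. Slc36a4 and Slc38a9 sit largely on internal membranes, where amino acids are sensed by the kinase complex mTORC1. When amino acids run short, the transcription factor ATF4 raises many of these carriers.

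The control arrays stood apart from the Ncl siRNA arrays by markers of other tissues, in the same contrast as every comparison with control below. Of 17 measured lung epithelium markers 15 were lower in the Ncl siRNA arrays and none was higher. Their summed signal was 10.51 to 10.70 on the log2 scale in the Ncl siRNA arrays and 13.79 to 13.86 in the control arrays. Readings of Scgb1a1, Bpifa1 and Cyp2f2 were under the lower quartile in all 4 Ncl siRNA arrays. Of 9 heart muscle markers 9 were lower (summed signal 8.56 to 8.64 against 9.71 to 9.94), and of 15 markers of lung stroma and endothelium 9 were lower and 2 higher (10.05 to 10.27 against 10.58 to 10.79). Of 11 leukocyte markers 4 were lower and 3 higher, with summed signals that overlapped (11.39 to 11.49 against 11.46 to 11.54). Laptm5 alone, at 10.71 to 11.05, made up most of each sum, so the sums say little about the other leukocyte markers. Lyz2 read 5.20 to 5.37 in the Ncl siRNA arrays and 8.69 and 8.94 in the control arrays (-3.52), and Ctss fell by 1.68. The 3 that were higher changed by 0.26 to 0.49. All 11 markers of embryonic stem cells lay above the median of every array, but they moved too. Of these 11, 7 were lower in the Ncl siRNA arrays (Esrrb at -0.84 and Nanog at -0.59 the most), 3 were higher (Fbxo15 at 0.59 and Utf1 at 0.29 the most) and 1 did not pass. With siRNA #2 10 of the 11 were lower than with siRNA #1. The part of these marker changes in those of the transporters was not tested. These are bulk samples, in which fewer cells of a type and less RNA per cell cannot be told apart.

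Under the Ncl siRNAs the transporters moved in both directions and mostly by less than 2-fold. In the mean of both siRNAs minus control, 7 of the 62 members rose, 12 fell and 43 did not pass. Among the falls is Slc6a8, which rose on its other probe set. Over all genes, 20.3% rose and 21.7% fell, 42% in all, against 30.6% of the members. The median change was -0.09 over the members and -0.05 over all genes. A change of at least 2-fold passed for 2 members, Slc36a4 and Slc7a3, against 6.24% of all genes. Fewer members than genes gave a strong signal: 32 of 62 had a mean at or above the average array median of 5.76 (64.2% of all genes). Among these brighter members 17 of 32 passed, against 57.8% of all such genes, and among dimmer members 2 of 30 passed, against 13.8%. In this contrast the share of members called was below that of all genes in each of these counts.

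All 19 members that passed had every Ncl siRNA array on the same side of both control arrays, as is plotted array by array. Over all 62 members this held for 9 upward and 19 downward, against 23.4% and 26.7% of all genes. With siRNA #1 alone 7 members rose and 11 fell, against 20.2% and 17.3% of all genes (37.4% in all). With siRNA #2 alone 8 rose and 13 fell, against 17.7% and 21.7% (39.5% in all). Of the brighter members 16 of 32 passed with siRNA #1 (51.4% of all such genes) and 19 of 32 with siRNA #2 (55.5%), and of the dimmer ones 2 of 30 passed with each (12.4% and 10.7%). At 2-fold or more, 2 members passed with siRNA #1 (5.98% of all genes) and 3 with siRNA #2 (7.06%). These counts share the control arrays. A rise with each siRNA was called for 7 members (15.5% of all genes) and a fall with each for 10 (14.3%), and no member was called in opposite directions.

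**Figure D1:**
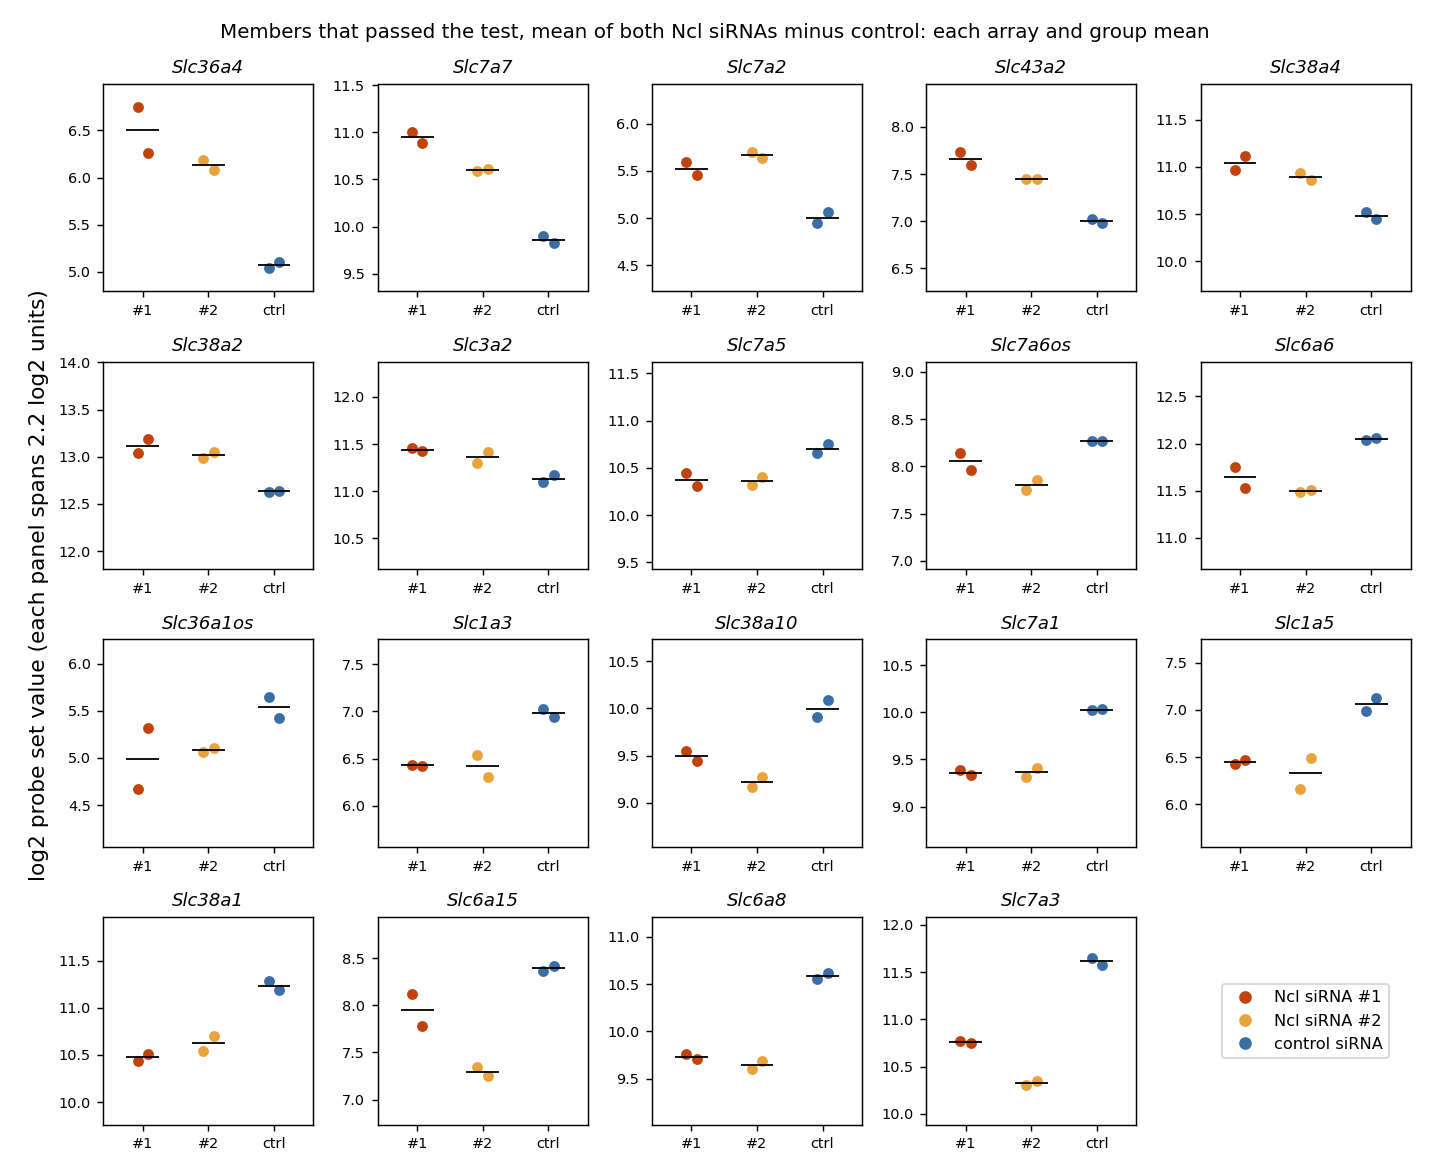
The 19 members that passed in the mean of both Ncl siRNAs minus control, 1 panel per gene, with log2 probe set values on the y axis. Points are arrays (2 per group: Ncl siRNA #1, Ncl siRNA #2, control siRNA), black lines are group means, and each panel spans the same number of log2 units. In every panel all 4 Ncl siRNA arrays lie above or below both control arrays.

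The 43 members that did not pass had changes between -0.41 and 0.24. Their 95% confidence intervals reached no lower than -0.78 and no higher than 0.50, so a 2-fold change lay outside each interval. This holds only for the probe set that stood for each gene. For 3 of the 43 another probe set passed, and those of Slc1a4 and Slc38a9 rose by up to 1.24 and 0.84. Many of the probe sets that stood for the 43 were dim. All 6 readings lay below the array median for 26 of the 62 members, and for Slc6a11, Slc6a12, Slc6a18, Slc6a20a, Slc7a12 and Slc7a14 all 6 lay below the lower quartile. A change in a transcript that such a probe set hardly reads could not be detected here.

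**Figure D2:**
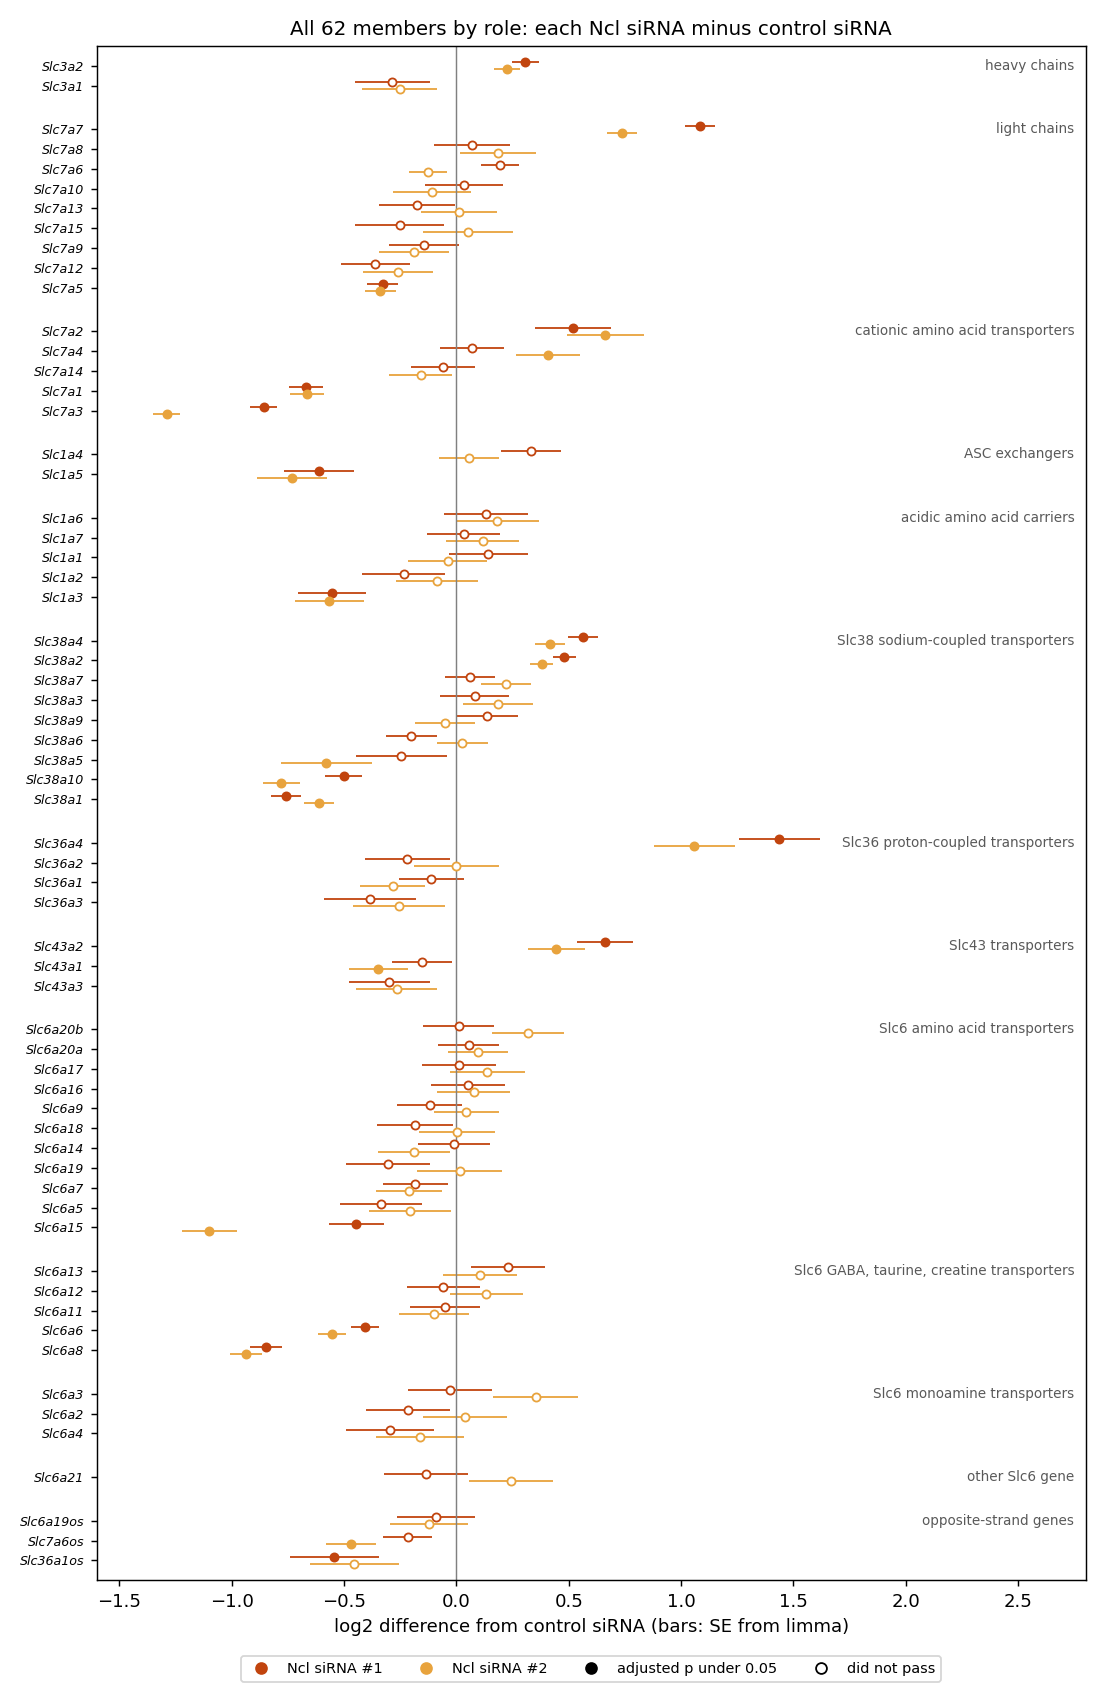
Log2 difference from control siRNA for all 62 members, grouped by role, with Ncl siRNA #1 and Ncl siRNA #2 side by side. Bars are SE from limma, filled points passed at an adjusted p under 0.05 and open points did not. Slc36a4 and Slc7a7 lie farthest to the right, and Slc7a3 with siRNA #2 lies farthest to the left at -1.29.

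The heavy chain Slc3a2 rose, and of the light chains Slc7a7 rose and Slc7a5 fell. Slc3a2, also called CD98 or 4F2hc, read 11.46 and 11.42 with siRNA #1, 11.30 and 11.41 with siRNA #2, and 11.09 and 11.17 with the control siRNA. All Ncl siRNA arrays were above both control arrays, by little. It rose by 0.27 (SE 0.05, adjusted p = 1.85e-04), and by 0.31 with siRNA #1 and 0.22 with siRNA #2. The siRNA #2 call was lost without replicate 2 of siRNA #2 (adjusted p = 0.117) or replicate 1 of the control (adjusted p = 0.0680). The other heavy chain, Slc3a1 or rBAT, known from kidney and gut, read between 3.93 and 4.51 in all arrays and did not pass (-0.27, SE 0.14).

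Among 9 light chains, 1 rose, 1 fell and 7 did not pass. Over all genes 20.3% rose and 21.7% fell. For 5 of the 9 every reading lay below the array medians, so the count says little about whether these changed. Among all genes with a mean below the average array median, 13.8% passed in either direction. Slc7a7, known as y+LAT1, exports arginine and lysine in exchange for neutral amino acids. It read 11.01 and 10.89 with siRNA #1, 10.59 and 10.61 with siRNA #2, and 9.90 and 9.82 with the control siRNA. The groups did not overlap, and siRNA #1 lay highest. Slc7a7 rose 1.88-fold (0.91, SE 0.06, adjusted p = 2.03e-11). Its other probe set rose by 0.97. In adults Slc7a7 is also known from macrophages, and any part of leukocyte RNA in its values was not tested.

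Slc7a5, or LAT1, brings in leucine and other large neutral amino acids. It read 10.44 and 10.30 with siRNA #1, 10.32 and 10.40 with siRNA #2, and 10.65 and 10.75 with the control siRNA. Both Ncl siRNA groups lay below both control arrays and at nearly the same height. Slc7a5 fell by 0.33 (SE 0.06, adjusted p = 8.88e-05), and the siRNAs differed by -0.01 (95% confidence interval -0.15 to 0.13). Slc7a6, or y+LAT2, with a transport activity like that of Slc7a7, stayed at 0.03 (SE 0.07, adjusted p = 0.770). The remaining light chains, Slc7a8, Slc7a9, Slc7a10, Slc7a12, Slc7a13 and Slc7a15, changed by -0.31 to 0.13 and did not pass. All of them except Slc7a13 were read below the array medians throughout.

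The promoter window of Slc7a7 is shown because this gene had the highest rise among members well above the array medians and its window carries matches to an ATF4 motif. Sequences are from RefSeq on GRCm38.p6, 250 bases before to 50 after an annotated start, 5′ to 3′ on the gene's strand. Capitals mark TGATGNAA, the core of the amino acid response element to which ATF4 binds with partners of the C/EBP family, searched on both strands. Slc7a7 has 5 windows in the table, and 3 of them hold no match. The window shown, chr14:54417895-54418194 on the minus strand, was picked for holding the most, 2 matches, and 1 overlapping window holds 1 of the same matches. Those in the window shown begin at -141 and -1, where the base after the first 250 is 0.
Slc7a7: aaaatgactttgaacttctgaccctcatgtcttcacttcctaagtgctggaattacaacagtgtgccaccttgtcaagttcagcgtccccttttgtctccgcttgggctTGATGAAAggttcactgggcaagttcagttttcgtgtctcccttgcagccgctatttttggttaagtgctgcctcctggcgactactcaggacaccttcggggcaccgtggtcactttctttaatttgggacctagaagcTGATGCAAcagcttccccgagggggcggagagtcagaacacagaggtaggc

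For comparison, Slc1a4, with a match on the opposite strand at -4 (chr11:20332664-20332963, minus strand), and Slc36a4, the member with the largest rise and no match in this window (chr9:15709488-15709787, plus strand), are given next. Slc1a4 is an exchanger of alanine, serine and cysteine, and both genes are described further on.
Slc1a4: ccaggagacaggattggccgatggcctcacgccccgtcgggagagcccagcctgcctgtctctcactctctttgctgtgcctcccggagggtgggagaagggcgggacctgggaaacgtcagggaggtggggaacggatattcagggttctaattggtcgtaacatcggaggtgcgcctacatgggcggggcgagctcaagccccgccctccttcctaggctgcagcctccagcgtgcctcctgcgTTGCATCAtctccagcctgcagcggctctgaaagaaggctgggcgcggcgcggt
Slc36a4: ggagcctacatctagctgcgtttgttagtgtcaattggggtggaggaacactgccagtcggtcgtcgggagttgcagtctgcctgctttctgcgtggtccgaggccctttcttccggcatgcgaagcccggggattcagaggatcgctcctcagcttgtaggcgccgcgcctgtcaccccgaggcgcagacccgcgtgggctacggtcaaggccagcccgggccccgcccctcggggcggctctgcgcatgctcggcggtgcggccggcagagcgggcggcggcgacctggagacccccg

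RefSeq windows were found for 45 of the 62 members, 66 windows in all, and some overlap. TGATGNAA was in 4 of the 66 windows (6.06%), against 3.97% of 32851 windows of all genes, and the members that hold it were Slc7a7, Slc1a4 and Slc6a21. Slc6a21 read between 4.28 and 4.94 and did not pass (0.05). The E-box CACGTG, which reads the same on both strands and is bound by Myc with Max, was in 9 of 66 windows (13.6%), against 7.15% of all windows. These belonged to Slc1a6, Slc1a7, Slc36a1, Slc38a5, Slc38a7, Slc43a1, Slc6a16, Slc6a3 and Slc7a14, and none of them passed in the mean of both siRNAs. A match describes letters in a window and not a bound site.

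The carriers of cationic amino acids held the largest fall. Slc7a3, or CAT3, takes up arginine and lysine and is known in adult rodents mainly from brain. It read 10.77 and 10.75 with siRNA #1, 10.31 and 10.35 with siRNA #2, and 11.65 and 11.58 with the control siRNA. The groups formed 3 separate steps, with siRNA #2 lowest. In the mean of both siRNAs Slc7a3 was at 47.5% of control (-1.07, SE 0.05, adjusted p = 2.32e-13), and it has no other probe set here.

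Slc7a1, or CAT1, the widespread carrier of arginine and lysine, read 9.39 and 9.33 with siRNA #1, 9.31 and 9.41 with siRNA #2, and 10.03 and 10.03 with the control siRNA. The Ncl siRNA groups lay at nearly the same height, both below control (difference 0.00, 95% confidence interval -0.16 to 0.16). It fell by 0.67 (SE 0.07, adjusted p = 2.67e-08), and 2 of its 3 probe sets fell. Slc7a2, or CAT2, moved the other way, with 5.60 and 5.45 for siRNA #1, 5.70 and 5.64 for siRNA #2, and 4.95 and 5.07 for the control siRNA. All of its readings lay below the array medians. It rose by 0.59 (SE 0.15, adjusted p = 0.00227), but its other 3 probe sets changed by 0.06 to 0.12 and did not pass. Its siRNA #1 call was lost without replicate 1 of siRNA #1 (adjusted p = 0.0702) or replicate 1 of the control (adjusted p = 0.107).

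Slc7a4 and Slc7a14 did not pass in the mean of both siRNAs (0.24 and -0.11). With siRNA #2 alone Slc7a4 rose by 0.41 (SE 0.14, adjusted p = 0.0253). That call was lost without replicate 1 of siRNA #2 (0.26, adjusted p = 0.380) or replicate 2 of the control (0.30, adjusted p = 0.201). It was also lost with its probe sets averaged (0.16, adjusted p = 0.377) and without a variance trend (adjusted p = 0.0734). Median centring (adjusted p = 0.0503) and quantile normalization (adjusted p = 0.0566) lost it too. With siRNA #2 the other probe sets of Slc7a4 changed by -0.26 and 0.33 and did not pass.

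The exchangers of small neutral amino acids differed from each other. Slc1a5, or ASCT2, which trades glutamine for other neutral amino acids, read 6.43 and 6.47 with siRNA #1, 6.17 and 6.49 with siRNA #2, and 6.99 and 7.13 with the control siRNA. It fell by 0.67 (SE 0.14, adjusted p = 3.10e-04), and its second probe set fell by 0.66. Slc1a4, or ASCT1, depended on the probe set read. On the one with the highest mean it had 7.44 and 7.42 with siRNA #1, 7.03 and 7.28 with siRNA #2, and 7.09 and 7.11 with the control siRNA. These groups overlapped (0.19, SE 0.12, adjusted p = 0.202). A second probe set of Slc1a4 read 7.39 and 7.06 with siRNA #1, 6.74 and 6.89 with siRNA #2, and 5.87 and 5.70 with the control siRNA. On it the groups did not overlap, and it rose by 1.24 (adjusted p = 8.65e-07 over all probe sets), while the third rose by 0.38 (adjusted p = 0.0433).

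Of 5 carriers of glutamate and aspartate, 1 fell and 4 did not pass. Slc1a3, or GLAST, known from glia, read 6.43 and 6.42 with siRNA #1, 6.53 and 6.30 with siRNA #2, and 7.03 and 6.94 with the control siRNA. All Ncl siRNA arrays were below the control arrays, and it fell by 0.56 (SE 0.13, adjusted p = 0.00135). That probe set ends in _x_at, a mark of probes that may also match other transcripts. Without such probe sets the change was -0.32 and did not pass (adjusted p = 0.154), and in all 3 of its 6 probe sets fell. The siRNA #2 call was lost without replicate 2 of siRNA #2 (adjusted p = 0.123). Slc1a1, Slc1a2, Slc1a6 and Slc1a7 changed by -0.16 to 0.16 and did not pass, though 1 of 3 probe sets of Slc1a1 rose by 0.55.

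The Slc38 carriers, several of which bring in glutamine, alanine and other small neutral amino acids with sodium, moved in both directions. Of 9 members 2 rose, 2 fell and 5 did not pass. Over all genes 20.3% rose and 21.7% fell, so these counts lie near the shares of all genes. Slc38a2, or SNAT2, the carrier induced when amino acids are scarce, read 13.04 and 13.19 with siRNA #1, 12.98 and 13.05 with siRNA #2, and 12.63 and 12.64 with the control siRNA. It was higher in all 4 Ncl siRNA arrays and rose 1.35-fold (0.43, SE 0.04, adjusted p = 3.64e-08). Its other 2 probe sets, which gave lower signals, rose by 0.74 and 0.66. Slc38a4, or SNAT4, known from liver and placenta, read 10.97 and 11.12 with siRNA #1, 10.94 and 10.86 with siRNA #2, and 10.52 and 10.44 with the control siRNA. It rose by 0.49 (SE 0.06, adjusted p = 3.38e-07), and its second probe set rose by 0.75.

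Slc38a1, or SNAT1, a glutamine carrier known from brain and many dividing cells, went the opposite way on its main probe set. It read 10.44 and 10.51 with siRNA #1, 10.54 and 10.70 with siRNA #2, and 11.28 and 11.18 with the control siRNA. The Ncl siRNA arrays were all lower, and Slc38a1 fell by 0.68 (SE 0.06, adjusted p = 2.46e-09). That probe set ends in _s_at, a mark of probes shared by several transcripts. The other probe set read 8.82 and 8.79 with siRNA #1, 8.86 and 8.90 with siRNA #2, and 8.94 and 9.01 with the control siRNA. It changed by -0.13 and did not pass (adjusted p = 0.214 over all probe sets), so the fall rests on the shared probe set.

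Slc38a10 read 9.55 and 9.44 with siRNA #1, 9.17 and 9.27 with siRNA #2, and 9.90 and 10.09 with the control siRNA. It fell by 0.64 (SE 0.07, adjusted p = 1.79e-07), and 5 of its 7 probe sets fell. Slc38a5, which also carries glutamine, had all its readings below the array medians and did not pass in the mean of both siRNAs (-0.41, SE 0.18, adjusted p = 0.0655). With siRNA #2 alone it fell by 0.58 (adjusted p = 0.0264), a call lost without replicate 2 of siRNA #2 (-0.30, adjusted p = 0.455) or replicate 1 of the control (-0.38, adjusted p = 0.236).

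Slc38a9, the lysosomal carrier that reports arginine to mTORC1, read 7.64 and 7.55 with siRNA #1, 7.45 and 7.36 with siRNA #2, and 7.63 and 7.29 with the control siRNA. The groups overlapped (0.04, SE 0.12, adjusted p = 0.807), and the sign turned with quantile normalization (-0.051), while it passed with the mean of all its probe sets (0.29, adjusted p = 0.0397). Its 7 probe sets did not give 1 answer. A second one read 7.44 and 7.33 with siRNA #1, 7.23 and 7.17 with siRNA #2, and 6.31 and 6.58 with the control siRNA, and rose by 0.84 (adjusted p = 2.07e-05 over all probe sets). In all 3 of the 7 rose and 4 did not pass. Slc38a3, Slc38a6 and Slc38a7 changed by -0.09 to 0.14 and did not pass.

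**Figure D3:**
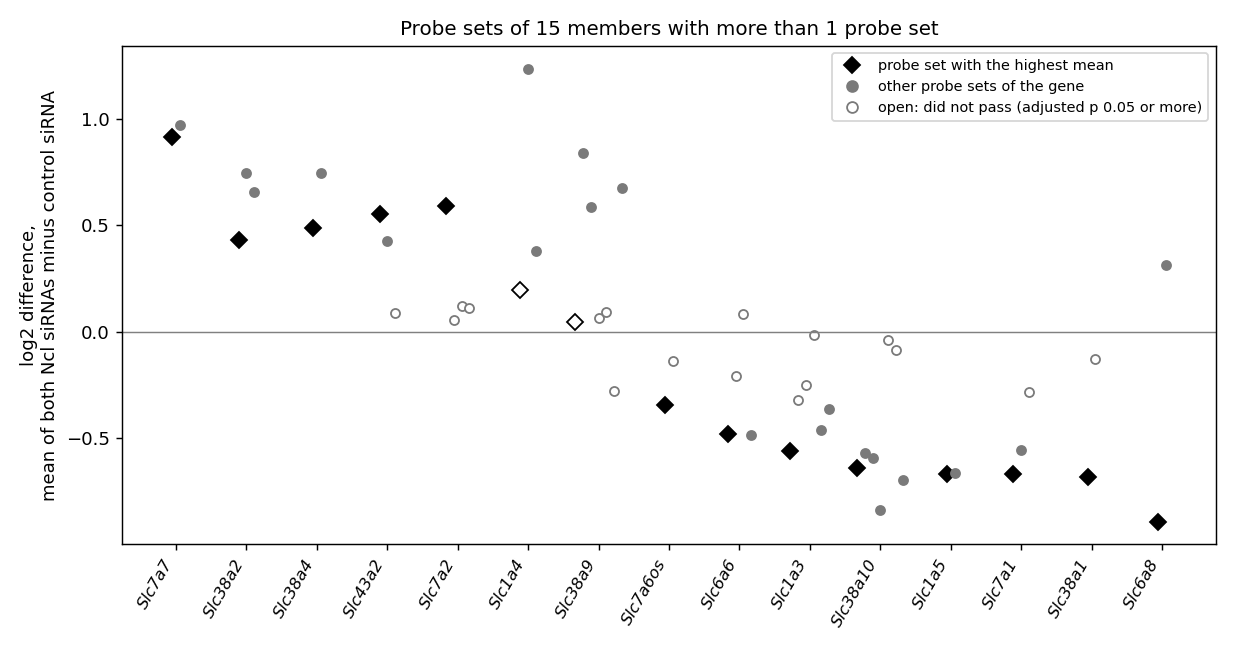
Log2 difference, mean of both Ncl siRNAs minus control siRNA, for each probe set of 15 members with more than 1 probe set. Diamonds are the probe sets with the highest mean, circles are the others, and open symbols did not pass. The 2 probe sets of Slc6a8 lie on opposite sides of 0, and those of Slc1a4 and Slc38a9 reach 1.24 and 0.84 while their diamonds stay near 0.

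Over the 19 members that passed, 13 had more than 1 probe set. In 4 of these 13 (Slc7a7, Slc38a2, Slc38a4 and Slc1a5) every probe set passed in the same direction, and in 1, Slc6a8, probe sets passed in opposite directions. Among the members that did not pass, 3 had another probe set that did (Slc1a1, Slc1a4 and Slc38a9), and all of those rose. Probe sets of a gene read different parts or forms of its transcripts, and their signals cannot be set against each other as amounts.

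Slc36a4, a carrier with high affinity for proline and tryptophan, had the largest rise of all members. It read 6.75 and 6.26 with siRNA #1, 6.18 and 6.08 with siRNA #2, and 5.04 and 5.10 with the control siRNA. The 4 Ncl siRNA readings lay above the array medians and both control readings below them. It rose 2.37-fold (1.25, SE 0.16, adjusted p = 8.30e-07), and it has no other probe set here. Slc36a1, the proton-coupled carrier of the lysosome and gut also called PAT1, read 6.99 and 7.11 with siRNA #1, 6.72 and 7.03 with siRNA #2, and 7.13 and 7.18 with the control siRNA. It did not pass (-0.20, SE 0.13, adjusted p = 0.232), and neither did Slc36a2 (-0.11) or Slc36a3 (-0.32).

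Of the Slc43 carriers, Slc43a2, or LAT4, which lets branched-chain amino acids and phenylalanine pass without sodium, read 7.73 and 7.59 with siRNA #1, 7.44 and 7.45 with siRNA #2, and 7.02 and 6.98 with the control siRNA. It rose by 0.55 (SE 0.11, adjusted p = 2.50e-04), and 2 of its 3 probe sets rose. The siRNA #2 call was lost without replicate 1 (adjusted p = 0.0711) or replicate 2 (adjusted p = 0.0739) of siRNA #2. Slc43a1, or LAT3, with similar substrates, read 7.46 and 7.55 with siRNA #1, 7.45 and 7.17 with siRNA #2, and 7.57 and 7.74 with the control siRNA. It did not pass in the mean of both siRNAs (-0.25, SE 0.11, adjusted p = 0.0887). With siRNA #2 alone it fell by 0.35 (adjusted p = 0.0417), and that call was lost without replicate 2 of siRNA #2 (-0.20, adjusted p = 0.472) or replicate 2 of the control (-0.26, adjusted p = 0.261). Slc43a3, which is known to carry purine bases, changed by -0.28 and did not pass.

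Of 20 Slc6 genes, read by the probe set with the highest mean, none rose and 3 fell, against 20.3% and 21.7% of all genes. Many of them gave low signals. All 6 readings lay below the array medians for 6 of 11 grouped as amino acid carriers and for Slc6a21. The same held for 3 of 5 carriers of GABA, taurine, betaine or creatine and 2 of 3 monoamine carriers. Among all genes with a mean below the average array median, 13.8% passed in either direction. Slc6a8, counted among the falls, rose on its other probe set. Of the 11 members grouped here as amino acid carriers, 1 fell and 10 did not pass. The member that fell was Slc6a15, a sodium-coupled carrier of proline and branched-chain amino acids known from brain. It read 8.12 and 7.78 with siRNA #1, 7.34 and 7.25 with siRNA #2, and 8.37 and 8.42 with the control siRNA. The siRNA #2 arrays lay well below the siRNA #1 arrays, and all 4 lay below control. It fell by 0.77 (SE 0.11, adjusted p = 3.29e-06), and its siRNA #1 call was lost without replicate 2 of siRNA #1 (-0.27, adjusted p = 0.0650). The other 10 (Slc6a5, Slc6a7, Slc6a9, Slc6a14, Slc6a16, Slc6a17, Slc6a18, Slc6a19, Slc6a20a and Slc6a20b) changed by -0.27 to 0.16. Slc6a14, which lung airway cells are known to express, read 4.20 to 4.47 in the Ncl siRNA arrays and 4.42 and 4.49 in the control arrays. All of these readings lay below the array medians, so they say little about RNA of other tissues.

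Of 5 carriers of GABA, taurine, betaine or creatine, 2 fell and 3 did not pass. Slc6a6, the taurine carrier, read 11.75 and 11.53 with siRNA #1, 11.48 and 11.51 with siRNA #2, and 12.04 and 12.06 with the control siRNA. It fell by 0.48 (SE 0.05, adjusted p = 1.76e-07), and 2 of its 4 probe sets fell. Slc6a8, the creatine carrier, read 9.76 and 9.71 with siRNA #1, 9.60 and 9.68 with siRNA #2, and 10.55 and 10.61 with the control siRNA on its main probe set. There it fell by 0.89 (SE 0.06, adjusted p = 8.01e-11). The second probe set read 9.68 and 9.47 with siRNA #1, 9.47 and 9.48 with siRNA #2, and 9.26 and 9.16 with the control siRNA. All 4 Ncl siRNA arrays were higher on it, and it rose by 0.31 (adjusted p = 0.00336 over all probe sets). The direction for Slc6a8 is therefore uncertain.

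Slc6a11, Slc6a12 and Slc6a13 changed by -0.08 to 0.17 and did not pass. The monoamine carriers Slc6a2, Slc6a3 and Slc6a4, known from neurons, changed by -0.23 to 0.16 and did not pass. Slc6a4, the serotonin carrier also known from lung endothelium, read 4.89 to 5.50 in the Ncl siRNA arrays and 5.58 and 5.40 in the control arrays. Its readings, too, all lay below the array medians. Of the opposite-strand genes, Slc7a6os fell by 0.34 (SE 0.10, adjusted p = 0.00579). With siRNA #1 alone it did not pass (-0.22, adjusted p = 0.135), nor did its second probe set (-0.14, adjusted p = 0.564 over all probe sets) or the mean of its probe sets (-0.24, adjusted p = 0.115). Slc36a1os fell by 0.50 (SE 0.17, adjusted p = 0.0234), while Slc6a19os did not pass (-0.11). Slc36a1os was read below the array medians throughout. With siRNA #2 alone it did not pass (-0.45, adjusted p = 0.0780). Nor did Slc36a1os pass in the mean of both siRNAs without a variance trend (adjusted p = 0.0723). Its call was lost without replicate 1 of siRNA #1 (-0.34, adjusted p = 0.0685), replicate 1 of siRNA #2 (-0.49, adjusted p = 0.0582) or replicate 1 of the control (-0.39, adjusted p = 0.181).

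The siRNAs were then compared with each other to ask where the members answered them unequally. In siRNA #2 minus siRNA #1, 5 members differed, all lower with siRNA #2, and 0 were higher by limma, with 9 lower and 2 higher at an unadjusted p under 0.05. Over all genes 6.18% were lower and 2.3% higher, 8.48% in all. All 5 were among the 32 brighter members (12.7% of such genes differed), none was among the 30 dimmer ones (0.952%), and none differed by 2-fold (0.308% of all genes). The widest gap belonged to Slc6a15, at -0.65 (SE 0.12, adjusted p = 0.00176), followed by Slc7a3 at -0.43 (SE 0.06, adjusted p = 7.67e-05). Both fell with each siRNA and fell further with siRNA #2. For Slc38a10 the difference was -0.28 (SE 0.08, adjusted p = 0.0430) on its main probe set. The probe sets with the next highest means gave -0.34 and -0.36. However, 4 of its 7 probe sets, with lower means of 5.27 to 7.28, had a difference above 0. In the fit over all probe sets no difference of Slc38a10 passed. The difference was -0.013 with its probe sets averaged (adjusted p = 0.952) and -0.19 with quantile normalization (adjusted p = 0.153). Slc7a7 rose with each siRNA and less with siRNA #2, at -0.35 (SE 0.07, adjusted p = 0.00206).

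Slc7a6 differed between the siRNAs at -0.32 (SE 0.08, adjusted p = 0.0208) but passed against control with neither. That difference did not pass with its probe sets averaged (-0.26, adjusted p = 0.0834) or with quantile normalization (-0.23, adjusted p = 0.0637). It read 9.53 and 9.39 with siRNA #1, 9.20 and 9.08 with siRNA #2, and 9.26 and 9.28 with the control siRNA. The arrays of siRNA #1 differed from each other more than those of the other groups, with a median absolute difference over the members of 0.16, against 0.11 for siRNA #2 and 0.11 for control. Without replicate 2 of siRNA #1, 16 members differed, 8 lower and 8 higher. Without replicate 1 of siRNA #1, or without either array of siRNA #2, 3 members differed, and the calls of Slc7a6 and Slc38a10 were lost each time. With quantile normalization 3 members were lower and 1 higher.

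Other genes of amino acid handling were counted beside the members in the mean of both siRNAs minus control. Of 20 measured carriers outside the 7 families, 5 rose, 6 fell and 9 did not pass (median -0.03). Slc16a10, a carrier of aromatic amino acids, rose by 0.87 (SE 0.14) and Sfxn3, a mitochondrial protein of the sideroflexin family, by 0.67 (SE 0.14). Slc25a12, the mitochondrial carrier of aspartate and glutamate, read 9.63 and 9.54 with siRNA #1, 9.28 and 9.30 with siRNA #2, and 10.52 and 10.58 with the control siRNA. It fell by 1.11 (SE 0.06), and Sfxn1, the mitochondrial serine carrier, fell by 0.56 (SE 0.06).

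Of 30 genes through which mTORC1 senses amino acids, 3 rose, 16 fell and 11 did not pass (median -0.20). Over all genes 20.3% rose and 21.7% fell, but these shares include dim genes. All 30 lay above the median of every array, and among all brighter genes 57.8% passed in either direction. Sesn3, of the leucine-sensing sestrin family, rose by 1.23 (SE 0.08), and Nprl3, a subunit of the complex that restrains mTORC1, rose by 0.32 (SE 0.12). Fnip2, a partner of folliculin, fell by 0.97 (SE 0.07), and the GTPase Rragd fell by 0.58 (SE 0.08). Of 19 aminoacyl-tRNA synthetases 3 rose, 7 fell and 9 did not pass (median -0.09), with Kars at 0.35 and Eprs at 0.34 highest and Hars at -0.49 and Qars at -0.40 lowest.

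Of 19 amino acid response genes 5 rose, 10 fell and 4 did not pass (median -0.32). Over all genes 20.3% rose and 21.7% fell, but these shares include dim genes. In the Ncl siRNA arrays 18 of the 19 lay above every array median, as did 18 in the control arrays. Among all brighter genes 57.8% passed in either direction. Atf4 itself read 11.41 and 11.32 with siRNA #1, 11.43 and 11.46 with siRNA #2, and 11.26 and 11.38 with the control siRNA. It did not pass (0.08, SE 0.05, adjusted p = 0.207), and neither did its targets Asns (0.01, adjusted p = 0.954) and Trib3 (0.14, adjusted p = 0.189). For Asns the siRNAs differed (siRNA #2 minus siRNA #1 -0.33, SE 0.07, adjusted p = 0.00287). It rose with siRNA #1 (0.17, adjusted p = 0.0475) and stood at -0.16 with siRNA #2 (adjusted p = 0.0608). The stress factors Atf3 and Ddit3 rose by 3.21 (SE 0.09) and 1.04 (SE 0.09), and Ddit4, an inhibitor of mTORC1, rose by 2.48 (SE 0.05). Chac1, an enzyme that degrades glutathione, fell by 1.08 (SE 0.13), and the serine and folate enzymes Phgdh, Psat1, Psph, Shmt2 and Mthfd2 fell as well (changes of -1.08 to -0.32). The list held known ATF4 targets on both sides of 0, as the plot of the lists shows.

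**Figure D4:**
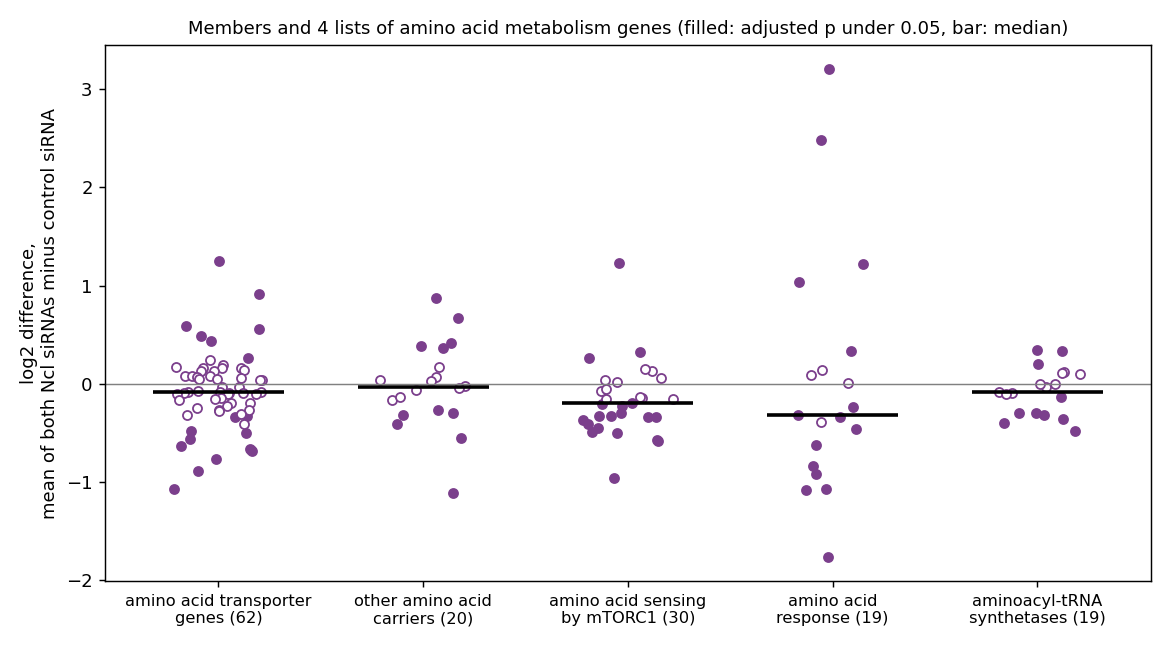
Log2 difference, mean of both Ncl siRNAs minus control siRNA, for the 62 members and 4 lists of genes of amino acid handling, with the number of measured genes in brackets. Points are genes (filled at an adjusted p under 0.05), and bars are medians. The members lie between -1.07 and 1.25, and the amino acid response genes between -1.77 and 3.21.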

How the data were processed

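The series matrix holds 45101 probe set values for each of 6 Affymetrix arrays. No source used here names the scale or the normalization. The range of the deposited values, 2.47 to 15.34, fits log2 signals, and array medians of 5.73 to 5.79 lie close together. The authors' background correction and summarisation are likewise not given in any source used. Per the labels, RNA was extracted with a Qiagen kit and labelled with the Affymetrix IVT kit. Their number, 2 arrays per group, limits the precision.

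Probe sets were named from GEO's platform annotation (34958 with 1 symbol, 932 with several, 9211 with none). Only those with 1 symbol were used, and the one with the highest mean stood for each gene. The 18194 genes were fitted in limma 3.58.1 (R 4.3.3) by group means, with a variance trend (3 residual and 17.5 prior degrees of freedom). The Benjamini-Hochberg adjustment covered all of them. No scaling was added. The procedure was tested on simulated data. Alternatives were quantile normalization, median centring, other rules for probe sets and dim genes, other variance models, array weights, stricter thresholds, a replicate block and leaving out each array.

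The members, gene lists, motifs and naming rule were chosen with earlier results of these data known. Values by array are given for members changed by at least 1 in the same direction with each siRNA, members differing by at least 0.5 between siRNAs, the 6 with the highest mean, a fixed set of 8 genes, and others that passed. Up to 4 genes of each list were named, and any of the amino acid response list. Array values of Slc36a1, Slc43a1, Slc6a4, Slc6a14 and Slc25a12, and of second probe sets, were added after they were seen, as was the fit over all probe sets.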

Additional observations from a re-analysis of the deposited data

Results flagged for a closer look

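The effects of the siRNAs differed by a test of the difference itself, siRNA #2 minus siRNA #1, for 5 members. These were Slc6a15 (-0.65), Slc7a3 (-0.43), Slc7a7 (-0.35), Slc7a6 (-0.32) and Slc38a10 (-0.28). Slc6a15, Slc7a3 and Slc7a7 also differed in every fit that left out 1 array, whereas Slc7a6 and Slc38a10 did not. The difference of Slc38a10 was -0.013 with its probe sets averaged. None of the 5 passed when the variance was fitted without a trend. The part of array quality in these differences was not tested.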

How the results depend on the processing

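In the 3 comparisons with control, the number of members called stayed within 1.5 times of the reported one under each alternative run other than the 2-fold limit, and 1002 of 1076 recomputed values of named members kept their direction and their side of the threshold. Requiring at least 2-fold left 2 members for the mean of both siRNAs, 2 for siRNA #1, 3 for siRNA #2 and 0 between the siRNAs. Between the siRNAs, 3 members were called when a gene's probe sets were averaged, 3 at an adjusted p under 0.01, and 0 by limma without a variance trend, where 9 had an unadjusted p under 0.05. Leaving out each array in turn gave 18 to 22 members for the mean of both, 16 to 25 for siRNA #1, 16 to 22 for siRNA #2 and 3 to 16 between the siRNAs. Where that left a group with 1 array, this array was assumed to vary like the others. With the replicate number as a replicate block, 20, 18, 21 and 5 members were called, in the same order. Differences between replicates correlated across genes by only -0.02 to 0.01 between groups, so the values show no strong effect shared by replicate number. Whether arrays of the same number were handled together cannot be told from this. The sign turned for Slc38a9 alone. It read -0.051 (mean of both) and -0.0095 (siRNA #1) with quantile normalization and 0.20 (siRNA #2) with probe sets averaged. Leaving out each array it ranged from -0.13 to 0.22 (mean of both), from -0.033 to 0.31 (siRNA #1) and from -0.22 to 0.12 (siRNA #2). It passed only with probe sets averaged, in the mean of both (0.29, adjusted p = 0.0397) and with siRNA #1 (0.38, adjusted p = 0.0261). The cause was not tested. With probe sets averaged Slc1a4 passed too (0.60, adjusted p = 6.05e-04). Dim probe sets limit what the array can show for 26 members.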
